A study of Mus musculus with 25 samples.

Results

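Messenger RNA of 10 endothelial genes was followed through a count table of 24984 genes in 25 libraries. The genes were taken by name, with earlier results of these data known. They were Stab2, Clec4g, Oit3 and Lyve1 of the liver sinusoid, Emcn and Plvap of capillaries, Pecam1 and Vwf of endothelium at large, and the selectin genes Sele and Selp. The paper had already picked Selp by thresholds from these RNA data, so the Selp differences in cultures and tumour cells are not independent of that choice. All 10 were present in the table. The study asked how the dose of a Ras oncogene shapes liver tumours and their surroundings. BMEL cells, clonally derived bipotential progenitors from the liver of C57BL/6xC3H mouse embryos, carried either an empty vector (BMEL WT, 3 cultures) or HRasG12V on a vector that also encodes a fluorescent protein, and were sorted for weak (RasLOW, 3 cultures) or strong (RasHIGH, 3 cultures) fluorescence. Ras-expressing BMEL cells were injected into the liver of athymic nude mice, which lack mature T cells, and grew as liver and peritoneal tumours. From each of 4 mice, fluorescent tumour cells and non-fluorescent stromal cells of both tumours were sorted, giving 4 libraries each of liver tumour cells, peritoneal tumour cells, liver stroma and peritoneal stroma. The sample labels do not say which Ras population each mouse received, nor the age of the mice, and the sorted libraries had no tumour-free liver or peritoneum beside them.

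Liver sinusoids are lined by fenestrated endothelial cells that take up matrix fragments, coagulation factors and microbial products from blood. Stab2 and Lyve1 encode hyaluronan-binding receptors, Clec4g encodes a lectin of sinusoidal and lymph node endothelium, and Oit3 encodes a secreted protein known from liver sinusoidal endothelium and, under another name, from hepatocytes. Other capillaries carry endomucin (Emcn) and the diaphragm protein of fenestrae and caveolae (Plvap), while lymphatic endothelium and some tissue macrophages also carry Lyve1. Pecam1 encodes CD31, a junction protein of endothelium that leukocytes and platelets carry too. Vwf, von Willebrand factor, is stored in Weibel-Palade bodies together with P-selectin (Selp), and E-selectin (Sele) is made by endothelium after inflammatory stimuli. Both selectins capture rolling leukocytes.

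Levels are given as CPM, counts of a gene per 1000000 counts of its library. Totals ran from 20818989 to 51241336 counts, and 3 counts, taken as the smallest level that can be seen, stood for 0.0586 to 0.144 CPM. That limit covers counting error only. Replicates are given in the order of mice 1 to 4, and SD is the standard deviation over mice or cultures. The stroma was rich in leukocyte RNA: 8 pan-leukocyte and macrophage genes summed to between 7930 and 9197 CPM in liver stroma and between 5465 and 6893 CPM in peritoneal stroma, against 562 to 1334 CPM and 387 to 642 CPM for 16 pan-endothelial genes. All 16 pan-endothelial genes had counts in both stromal groups. Libraries of 2 mice stood apart. In the liver stroma of mouse 2 the pan-endothelial genes summed to 1334 CPM against 562 to 625 CPM in the other liver stroma, the Kupffer cell genes to 817.9 against 306 to 433 CPM and the hepatocyte genes to 263.9 against 31.1 to 96.2 CPM. In the peritoneal tumour cells of mouse 1 the leukocyte genes summed to 278.5 CPM against 67.4 to 74.4 CPM in the other peritoneal tumour-cell libraries and the fibroblast genes to 1227 CPM against 197 to 269 CPM.

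Stab2, Clec4g and Oit3 separated the stroma of the liver from that of the peritoneum by the largest margins among the 10 genes. Stab2 (chr10:86303943-86470770 on mm9, minus strand) stood at 72.2, 245.9, 114.1 and 88.8 CPM in liver stroma and at 1.79, 0.562, 0.489 and 0.596 CPM in peritoneal stroma. Its mean of 130.3 ± 79.0 CPM (SD, n = 4) in the liver compared with 0.858 ± 0.620 CPM in the peritoneum. The groups did not overlap, and the log2 fold change was 7.10 (SE 0.54, adjusted p = 1.23e-05, edgeR quasi-likelihood test with Benjamini-Hochberg adjustment over 14755 genes). A gene was called when its adjusted p was under 0.05 and its fold change exceeded 1 on the log2 scale.

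Clec4g (chr8:3707064-3720651, minus strand) had 41.0, 152.6, 85.8 and 47.5 CPM in liver stroma but 0.550, 0.0432, 0.122 and 0 CPM in peritoneal stroma, the latter from 16, 1, 4 and 0 counts. Its log2 fold change was 8.63 (SE 0.71, adjusted p = 1.91e-05). Oit3 (chr10:58885706-58904526, minus strand) had 34.2, 95.2, 36.7 and 32.0 CPM against 0.996, 0.649, 0.947 and 0.526 CPM, a log2 fold change of 5.83 (SE 0.43, adjusted p = 1.15e-05). For all 3 genes every liver library lay above every peritoneal library, and mouse 2 had the highest liver value. Mouse by mouse, the liver level was 40.4, 438, 233 and 149 times the peritoneal level for Stab2 and 34.4, 147, 38.8 and 60.8 times for Oit3. Both stromal libraries of mice 1, 3 and 4 were sequenced on the same lane, whereas those of mouse 2 were on different lanes. In bulk RNA, fewer cells of a type and less RNA per cell cannot be told apart.

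These 3 were the members called higher in liver stroma, of 10 tested, where 3.36% of all genes were called higher. No member was called lower, where 9.98% of all genes were. The groups did not overlap for the same 3 members, against 38.3% of all genes. Leaving out any single library left the 3 calls in place.

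**Figure D1:**
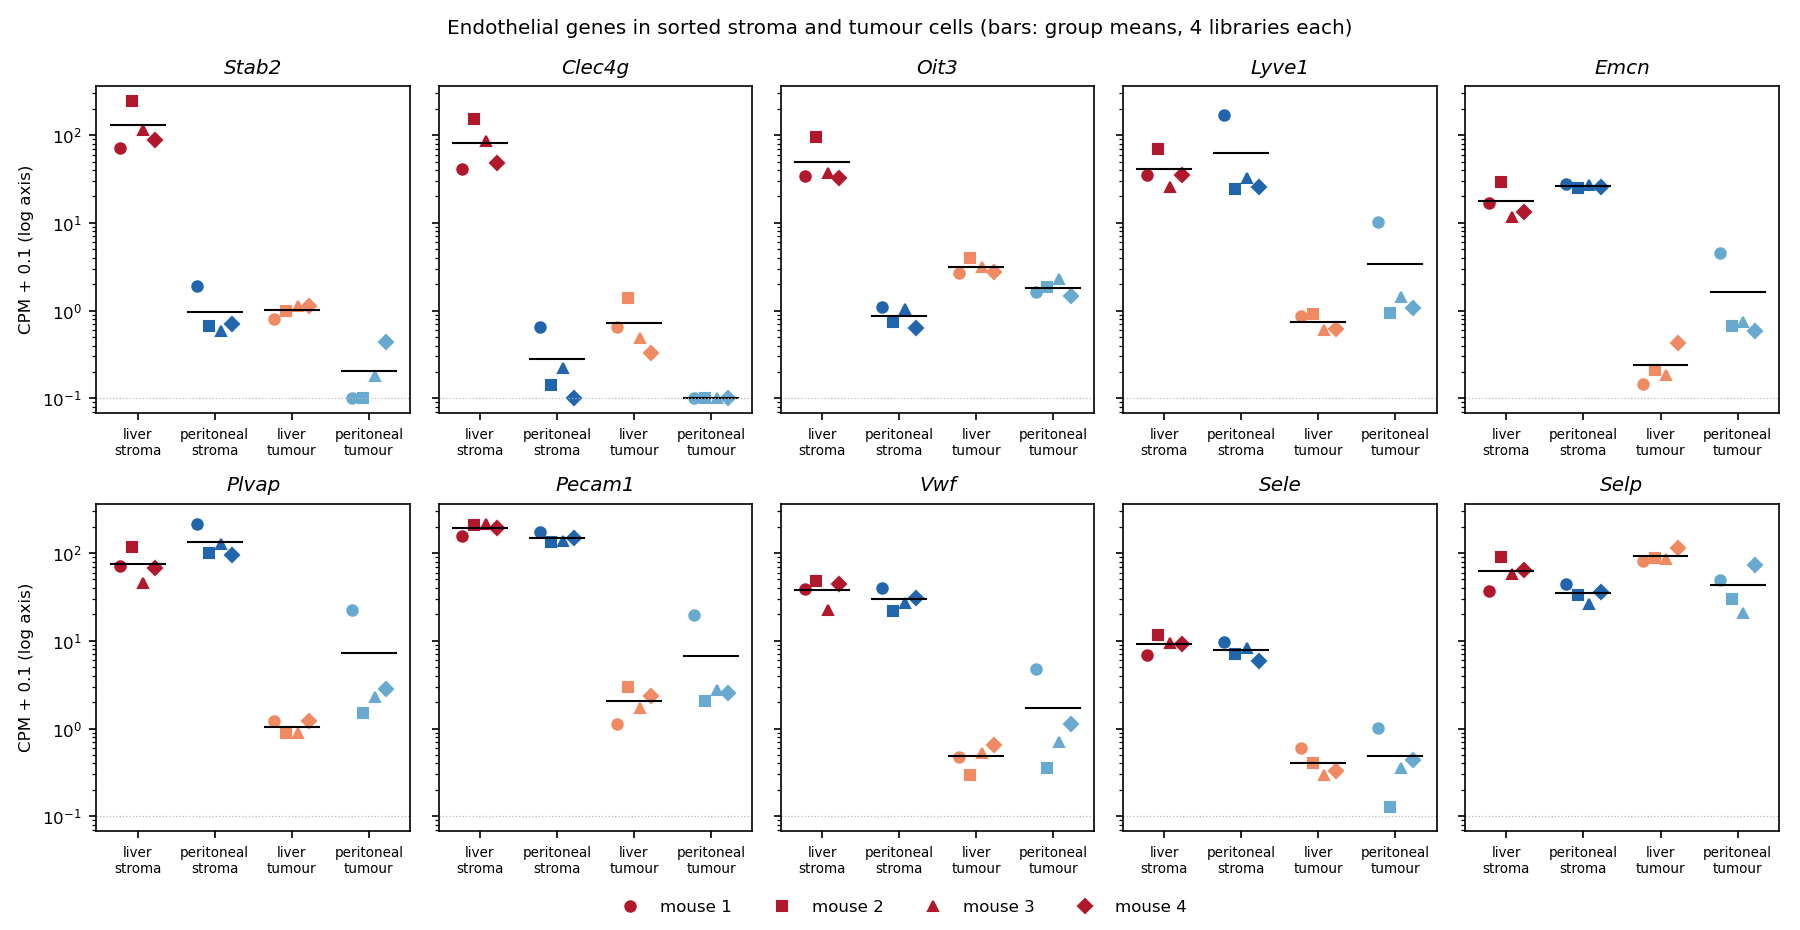
Level of each endothelial gene in the 16 sorted libraries, as CPM plus 0.1 on a log axis, with 1 symbol per mouse, a bar at the group mean and a dotted line where a count of 0 lies. Stab2, Clec4g and Oit3 are high in liver stroma alone, Selp is at 20.5 to 112.7 CPM in all 4 groups, and the remaining genes are above their tumour-cell values in both stromal groups, with Sele at no more than 11.7 CPM.

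Lyve1, Emcn and Plvap did not share that pattern. Lyve1 (chr7:117994121-118006467, minus strand) stood at 35.1, 68.6, 25.7 and 35.3 CPM in liver stroma and at 169.7, 24.2, 32.1 and 25.4 CPM in peritoneal stroma. The groups overlapped, and the log2 fold change of -0.73 (SE 0.62, adjusted p = 0.405) rested on the peritoneal stroma of mouse 1, without which it was 0.43 (adjusted p = 0.276). In that library the Kupffer cell genes also summed highest of the 4 peritoneal stromal libraries, at 179.8 CPM against 51.16 to 104.4 CPM, and their part in the Lyve1 value was not tested. Emcn (chr3:137004031-137095149, plus strand) had 16.8, 28.9, 11.5 and 13.2 CPM in liver stroma and a narrow 27.8, 25.0, 26.9 and 25.5 CPM in peritoneal stroma. Only the liver library of mouse 2 was not below the peritoneal values. The log2 fold change of Emcn was -0.71 (SE 0.24, adjusted p = 0.0431), short of the fold threshold.

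Plvap (chr8:74021653-74035668, minus strand) had 70.3, 117.3, 45.7 and 67.8 CPM in liver stroma and 212.2, 99.5, 126.5 and 95.3 CPM in peritoneal stroma, with a log2 fold change of -0.95 (SE 0.31, adjusted p = 0.0377), also short of the threshold. The liver library of mouse 2 lay within the peritoneal range. Without that library both genes were called lower in liver stroma, Emcn at -1.02 (adjusted p = 8.81e-04) and Plvap at -1.21 (adjusted p = 0.0138). Plvap was also called without the peritoneal library of mouse 2 (-1.08, adjusted p = 0.0353) or of mouse 4 (-1.10, adjusted p = 0.0268).

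Genes of endothelium at large were close at both sites. Pecam1 (chr11:106515531-106611942, minus strand) stood at 157.2, 206.5, 215.7 and 194.6 CPM in liver stroma and at 175.8, 132.3, 138.2 and 146.5 CPM in peritoneal stroma. The log2 fold change was 0.27 (SE 0.12, adjusted p = 0.113), and mouse 1 went against the other 3 mice, with a liver level 0.894 times its peritoneal level. Vwf (chr6:125496792-125636697, plus strand) had 38.4, 47.5, 22.2 and 43.8 CPM against 39.5, 21.7, 26.6 and 30.3 CPM, a log2 fold change of 0.24 (SE 0.24, adjusted p = 0.469). Both genes overlapped between the sites.

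The selectin genes lie next to each other on chromosome 1, with 57587 bases between Sele (chr1:165978365-165987808, plus strand) and Selp (chr1:166045395-166080157, plus strand). Sele was low throughout, at 6.72, 11.7, 9.39 and 9.06 CPM in liver stroma and 9.55, 7.004, 8.28 and 5.79 CPM in peritoneal stroma, with a log2 fold change of 0.14 (SE 0.19, adjusted p = 0.616). Selp stood at 37.0, 90.1, 57.4 and 63.3 CPM in liver stroma and at 44.4, 33.0, 26.5 and 35.4 CPM in peritoneal stroma. Its log2 fold change of 0.71 (SE 0.23, adjusted p = 0.0411) missed the fold threshold, and again only mouse 1 had the lower value in the liver, 0.832 times the peritoneal one. No source names the strand setting of the counting, and 5 members overlap other annotated genes, from which their reads may not be separated: Stab2 overlaps 6 and Selp 2 genes on the opposite strand, Clec4g 2 genes of which 1 is on its own strand, and Plvap and Pecam1 1 gene each on the opposite strand (Gtpbp3 and U3).

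Set against gene length, as mean CPM per kilobase of annotated exon, Pecam1 led in liver stroma at 44.9 ± 6.0, followed by Plvap at 37.4 ± 15.0 and Clec4g at 33.2 ± 20.8 (SD, n = 4), which did not differ beyond their spread. Oit3 (17.8 ± 10.9), Lyve1 (15.8 ± 7.2), Stab2 (14.9 ± 9.0) and Selp (14.0 ± 5.0) formed a middle tier with overlapping spread, above Emcn, Sele and Vwf, which lay between 2.36 and 3.26. In peritoneal stroma the order was led by Plvap at 66.2 ± 27.0 and Pecam1 at 34.4 ± 4.5 CPM per kilobase, and it ended with Oit3 at 0.280 ± 0.082, Stab2 at 0.0980 ± 0.0708 and Clec4g at 0.0726 ± 0.103.

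**Figure D2:**
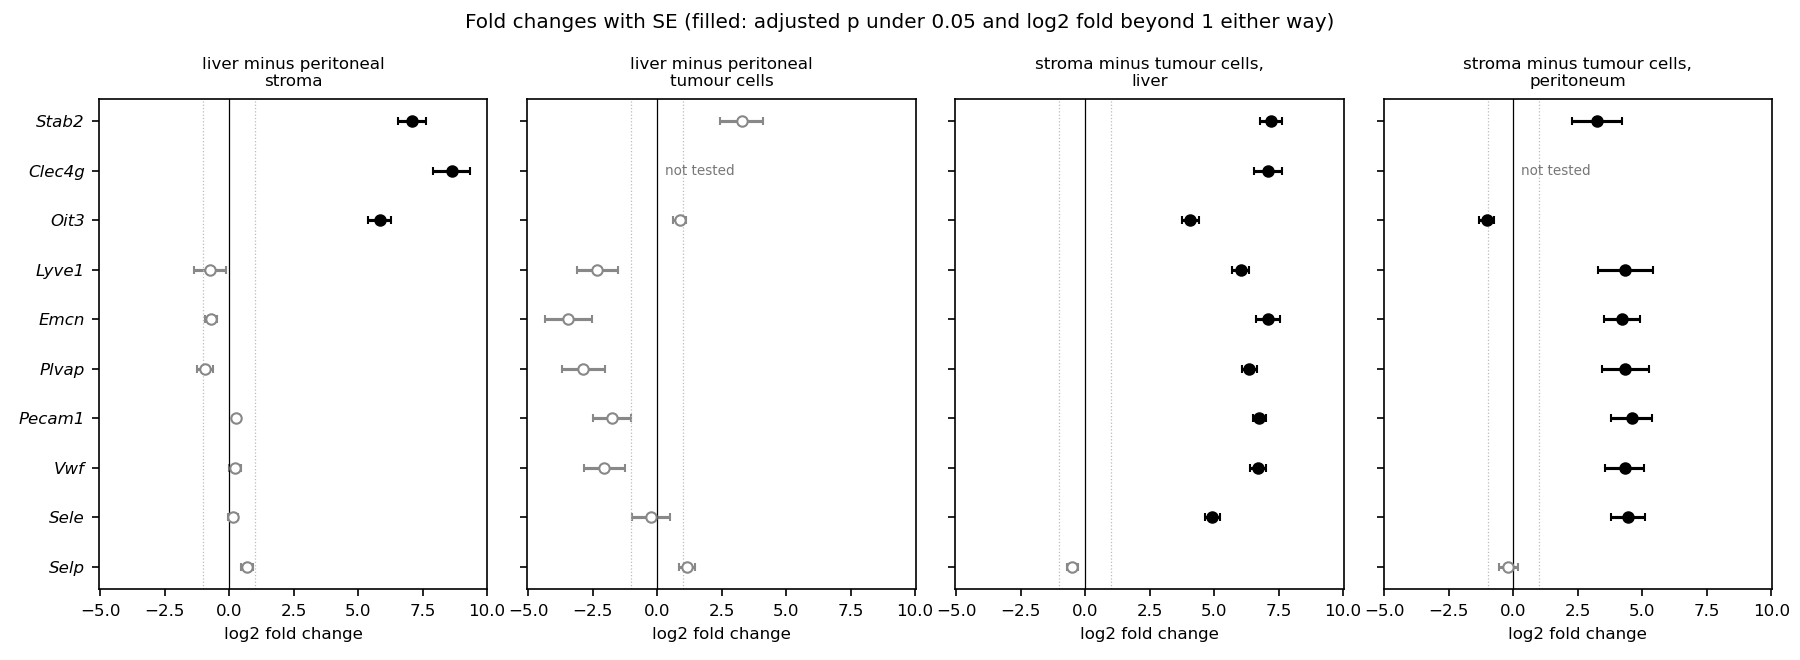
Log2 fold changes with SE of the endothelial genes in 4 comparisons, each of 4 against 4 libraries, filled where the adjusted p was under 0.05 and the fold change beyond 1 on the log2 scale in either direction (dotted lines). Stab2, Clec4g and Oit3 stand at 5.83 or more between the stromal groups, and Selp is the gene near 0 between stroma and tumour cells at both sites.

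To describe the members within the endothelial part of the stroma, each stromal library was scaled to the geometric mean of 16 pan-endothelial genes (among them Cdh5, Kdr, Tek, Tie1 and Erg), which was 24.0, 51.9, 24.1 and 23.9 CPM in liver stroma and 30.2, 21.1, 21.1 and 17.3 CPM in peritoneal stroma. On this scale the median of all genes moved to a log2 fold change of -0.24. Stab2, Clec4g and Oit3 stayed higher in the liver, at log2 fold changes of 6.79, 8.36 and 5.45, while Emcn (-1.08, adjusted p = 0.0114) and Plvap (-1.23, adjusted p = 0.00547) passed the threshold as lower. Of all genes, 1.69% were called higher and 12.4% lower. Emcn ranged from -1.06 to -0.51 in liver stroma and from -0.12 to 0.55 in peritoneal stroma on the log2 scale relative to the list, and Plvap from 0.92 to 1.55 against 2.23 to 2.81.

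A two-sided exact permutation test over the 70 groupings of the 8 libraries, added after the data had been seen, gave p = 0.0286 for each of these 5 genes, the smallest value it can give. The sites had already been seen not to overlap for these 5 genes, so that p was fixed beforehand and adds no support. It was not adjusted for the number of genes. That test lets libraries trade places between mice. With liver and peritoneum swapped only within each of the 4 mice there are 16 arrangements, the smallest exact permutation p is 0.125, and no gene could pass 0.05. The same 5 genes and Selp had an exact p = 0.125 there, with all 4 mice in the same direction. In the exact test over 70 groupings, Pecam1 (p = 0.914), Vwf (p = 0.857), Sele (p = 0.514), Lyve1 (p = 0.343) and Selp (p = 0.171) had differences between -0.56 and 0.38. The Emcn call was lost without the liver stroma of mouse 3 (adjusted p = 0.0745) or 4 (0.0558) or the peritoneal stroma of mouse 3 (0.0562) or 4 (0.0565), and that of Plvap without the liver stroma of mouse 3 (0.0592), with log2 fold changes of -0.98 to -1.12 throughout. Lyve1 was called lower without the peritoneal stroma of mouse 2 (-1.11, adjusted p = 0.0478) or 4 (-1.05, adjusted p = 0.0357).

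**Figure D3:**
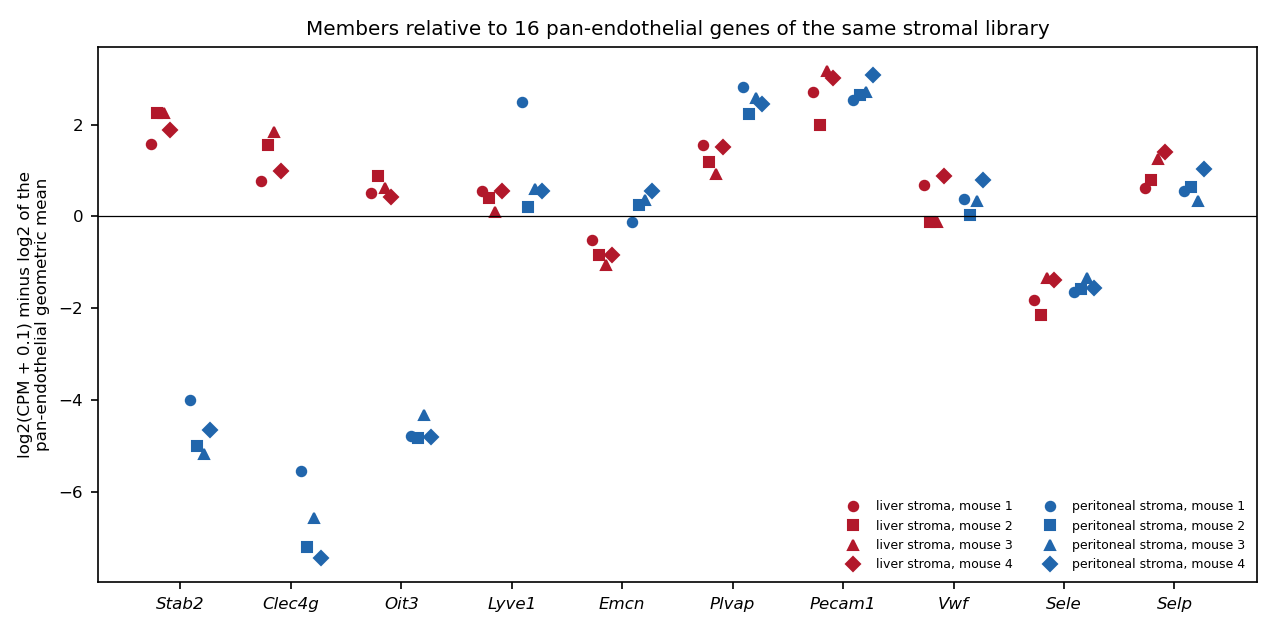
Level of each endothelial gene relative to the 16 pan-endothelial genes of the same library, as log2(CPM + 0.1) minus the log2 of the list's geometric mean, in the 4 liver (red) and 4 peritoneal (blue) stromal libraries. Stab2, Clec4g and Oit3 lie 5.29 to 7.98 apart on average, Emcn and Plvap are lower in every liver library than in every peritoneal library, and the other genes overlap.

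Other genes of liver sinusoids were described by counts of calls between liver and peritoneal stroma, beside the background shares of 3.36% higher and 9.98% lower. Of 14 further sinusoidal genes, all tested, 9 were called higher in liver stroma and 1 lower. Their median log2 fold change was 2.02 against 0.02 over all genes. Summed, the 14 genes overlapped between the sites, at 1679 to 2315 CPM in liver stroma and 1219 to 2439 CPM in peritoneal stroma. Gpr182, a scavenger of chemokines, stood at 75.8 against 1.66 CPM (log2 5.38, SE 0.62, adjusted p = 1.60e-04), and F8, coagulation factor VIII, at 34.0 against 0.784 CPM (log2 5.29, SE 0.52, adjusted p = 6.14e-05). Wnt2, a ligand made by central vein endothelium but also by other mesenchymal cells, was the one called lower, at 2.29 against 19.2 CPM (log2 -3.20, SE 0.33, adjusted p = 7.60e-05). Mrc1, the mannose receptor shared with macrophages, stood at 611.8 and 880.5 CPM and was not called (log2 -0.64, adjusted p = 0.0458).

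The 16 pan-endothelial genes had 2 calls higher and none lower, with a median of 0.32. The called genes were Kdr, the main receptor of vascular endothelial growth factor (137.8 against 49.6 CPM, log2 1.34, SE 0.32, adjusted p = 0.00958), and the receptor phosphatase gene Ptprb (146.7 against 47.0 CPM, log2 1.51, SE 0.33, adjusted p = 0.00641). The lowest were the transcription factor gene Sox18 (log2 -0.60, adjusted p = 0.211) and the tight junction gene Cldn5 (log2 -0.51, adjusted p = 0.313). Of 4 endothelial genes shared with leukocytes or fibroblasts, Icam2 (0.46), Eng (0.40) and Flt1 (0.34) were not called and Cd34 was called lower in liver stroma, at 40.5 against 182.1 CPM (log2 -2.28, adjusted p = 2.16e-05), with a list median of 0.37.

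Lymphatic genes went the other way in most cases: of 7 tested, 5 were called lower in liver stroma and 1 higher, with a median of -3.13. Mmrn1, a multimerin of lymphatic endothelium and platelets, stood at 0.229 against 16.8 CPM (log2 -6.25, SE 0.50, adjusted p = 1.65e-05), and the transcription factor gene Tbx1 at 0.0490 against 1.54 CPM (adjusted p = 7.61e-04). Flt4, a growth factor receptor that sinusoidal endothelium also carries, was the gene called higher (129.6 against 34.3 CPM, log2 1.79, adjusted p = 4.75e-04), and Nts was not called (log2 1.26, adjusted p = 0.113). The other genes called lower were the guidance gene Reln (1.06 against 8.53 CPM), the lymphatic master regulator Prox1 (2.47 against 4.74 CPM), which hepatocytes also express, and Pdpn (13.2 against 109.4 CPM), which fibroblasts and mesothelium also express. Ccl21a had no counts in the sorted libraries.

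Of 10 genes of endothelial activation and Weibel-Palade bodies, 3 were called lower in liver stroma and none higher, with a median of -0.45. Apln, a peptide of angiogenic tip cells, was lowest (8.94 against 31.3 CPM, log2 -1.93, adjusted p = 3.79e-04), followed by the chemokine gene Cxcl1 (log2 -1.72, adjusted p = 4.72e-05). The granule protein gene Cd63, the remaining call, is widely expressed and stood at 145.2 against 320.6 CPM. Esm1 (0.68, adjusted p = 0.215) and Icam1 (0.43, adjusted p = 0.112) had the highest log2 fold changes without a call.

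Genes of cells that could share or carry the members moved with the site as well. Of 8 Kupffer cell genes, 5 were called higher in liver stroma (median 2.24): Clec4f stood at 108.3 CPM in liver stroma with no counts in peritoneal stroma, Cd5l at 117.9 against 3.60 CPM, Vsig4 at 40.8 against 2.94 CPM, Slc40a1 at 106.6 against 18.5 CPM and Timd4 at 22.7 against 6.24 CPM, while C6 (log2 0.42) and Folr2 (log2 -1.53) were not called. All 6 tested hepatocyte genes were called higher (median 4.41), with Alb at 54.3 against 0.00764 CPM and Fga at 19.4 CPM against no counts, and Cyp2e1 (log2 1.76) and Ahsg (log2 1.54) as the smallest. The hepatocyte list summed to between 31.1 and 263.9 CPM in liver stroma, highest in mouse 2, and to between 4.95 and 14.1 CPM in peritoneal stroma. Since hepatocytes can carry Oit3, their part in its difference was not tested. Of 10 platelet and megakaryocyte genes, 8 were tested, 2 called higher and 2 lower (median -0.21), with Clec1b (4.57, also in the sinusoidal list) and Itga2b (1.20) highest and Gp1ba (-1.66, not called) and Gp1bb (-1.45) lowest. Pf4 (-1.34) was the other gene called lower.

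No pan-leukocyte gene of 8 was called (median 0.38), with Ptprc at 0.77 and Laptm5 at 0.52 as the highest log2 fold changes and Adgre1 at -0.13 and Lyz2 at -0.12 as the lowest. Peritoneal macrophage genes had 2 of 8 called lower in liver stroma (median -0.41), Lbp at -3.60 and Prg4 at -1.31, with F5 at 0.19 and Alox15 at 0.18 at the other end. All 7 tested fibroblast genes were called lower (median -3.00), from Col3a1 at -4.15 and Dcn at -3.59 to Pdgfrb at -1.73 and Acta2 at -1.77. Of 6 mesothelial genes, Wt1 was called lower (-1.28), Upk1b stood at 0.35, and Krt19 (0.86) and Upk3b (0.59) were highest (median 0.37). The mesothelial list summed to 3135 to 3379 CPM in BMEL WT cultures and 2308 to 3287 CPM in peritoneal tumour cells, against 231.4 to 295 CPM in peritoneal stroma. The peritoneal macrophage list summed to 314.1 to 332.9 CPM in BMEL WT cultures and 501.2 to 806.8 CPM in peritoneal stroma. Neither list was therefore particular to its cell type in these libraries. Further lists had the same limit. The pan-endothelial genes, Ptprb among them, summed to 363.1 to 452 CPM in BMEL WT cultures. In RasHIGH cultures the further sinusoidal genes summed to 250 to 346.7 CPM and the activation genes to 573.8 to 673.1 CPM. Pan-leukocyte genes summed there to only 46.4 to 59.85 CPM and fibroblast genes to 1.163 to 1.903 CPM. The parts of these cell types in the member values were not tested, beyond the scaling to pan-endothelial genes above.

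Between stroma and tumour cells of the liver, 9 of the 10 members were called higher in stroma, where 27.5% of all genes were called higher and 16.4% lower. Their log2 fold changes lay between 4.08 for Oit3 (SE 0.35, adjusted p = 4.83e-07) and 7.21 for Stab2 (SE 0.42, adjusted p = 1.53e-08), and the groups did not overlap for these 9, as for 73.0% of all genes. As a percent of the stroma of the same mouse, the median level in liver tumour cells was between 0.560% for Emcn and 2.57% for Sele over 8 members, and 7.92% for Oit3. Pan-leukocyte genes stood at 0.801% to 1% of stroma in the same libraries, and fibroblast genes at 0.932% to 2.07%. Selp was the exception: 81.2, 86.8, 86.6 and 112.7 CPM in liver tumour cells, a mean of 91.8 ± 14.1 CPM against 62.0 ± 21.9 CPM in stroma (log2 fold change of stroma over tumour cells -0.50, SE 0.20, adjusted p = 0.0398, not called).

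In the peritoneum, 9 members were tested and 7 were called higher in stroma, where 27.4% of all genes were called higher and 16.2% lower. Clec4g had no counts in any peritoneal tumour-cell library, where 3 counts would stand for at most 0.113 CPM. The 7 log2 fold changes ran from 3.24 for Stab2 (SE 0.96, adjusted p = 0.0125) to 4.59 for Pecam1 (SE 0.80, adjusted p = 7.48e-04). DESeq2 called 4 of the 7 and gave no adjusted p for Pecam1, Lyve1 and Emcn. The tumour-cell library of mouse 1 was the highest of the 4 for 6 of the 7 genes, and Stab2 had no counts in it. Its level was 11.2% of stroma for Pecam1, 11.8% for Vwf, 16.2% for Emcn, 10.4% for Plvap and 9.68% for Sele, whereas mice 2 to 4 lay between 0.404% and 5.87% for these genes. The leukocyte genes of that library stood at 4.04% of stroma against 0.979% to 1.29% in mice 2 to 4, and the fibroblast genes at 3.07% against 0.463% to 0.482%.

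Oit3 was called lower in peritoneal stroma than in peritoneal tumour cells, at 0.780 ± 0.228 against 1.72 ± 0.368 CPM (SD, n = 4; log2 -1.03, SE 0.29, adjusted p = 0.0103). The tumour cells had 1.53, 1.78, 2.21 and 1.36 CPM, all above the highest stromal value of 0.996 CPM. The fold change sat close to the threshold of 1 and fell short of it, at -0.88 to -0.99, without the tumour cells of mouse 1, 2 or 3 or the stroma of mouse 2 or 4, with adjusted p from 0.024 to 0.0324. Selp did not differ in a called way between the 2 kinds of cells, at 34.8 ± 7.43 CPM in stroma and 42.9 ± 22.8 CPM in tumour cells (log2 -0.19, SE 0.36, adjusted p = 0.642). Its direction turned to 0.22 (adjusted p = 0.549) without the tumour cells of mouse 4.

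**Figure D4:**
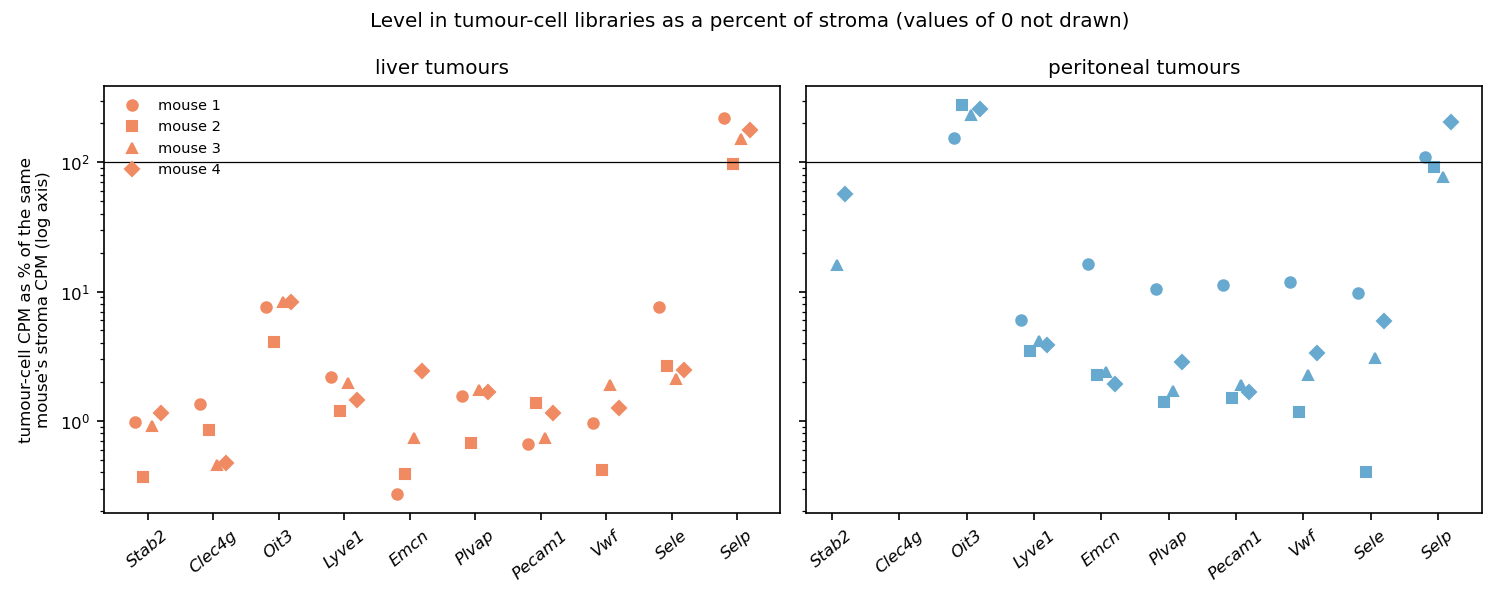
Level of each endothelial gene in tumour cells as a percent of the stroma of the same mouse and site, on a log axis with a line at 100%, with 1 symbol per mouse and values of 0 left out. In liver tumours 8 genes lie between 0.274% and 7.53%, Oit3 between 4.05% and 8.35% and Selp between 96.4% and 220%, and in peritoneal tumours Oit3 (154% to 275%) and Selp (77.4% to 203%) stand above the rest.

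The 16 pan-endothelial genes behaved likewise, with 14 called higher in liver stroma than in liver tumour cells and 13 in the peritoneum. Cdh5, the VE-cadherin gene, and Ptprb were not called higher in stroma at either site, and Ecscr, at 20.7 against 13.3 CPM, passed the adjusted p but not the fold threshold in the peritoneum (log2 0.75, adjusted p = 0.00155). Cdh5 averaged 122.4 CPM in liver and 143.6 CPM in peritoneal tumour cells against 167.7 and 122.9 CPM in the matching stroma, and 0.0802, 1.23 and 8.97 CPM in BMEL WT, RasLOW and RasHIGH cultures. Ptprb averaged 115.6 and 145.5 CPM in the tumour cells and 386 CPM in BMEL WT cultures, and was called lower in peritoneal stroma than in peritoneal tumour cells (log2 -1.52, adjusted p = 2.07e-04), as the only one of the 16. Cldn5, another junction gene, averaged 0.0529 CPM in liver tumour cells. Left without Cdh5 and Ptprb, an alternative chosen after their values were seen, the pan-endothelial scale gave log2 fold changes of 6.867 for Stab2, 8.435 for Clec4g, 5.527 for Oit3, -1.005 for Emcn and -1.15 for Plvap.

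Between liver and peritoneal tumour cells no member of the 9 tested was called, where 0.382% of all genes were called higher and 0.765% lower, while 2640 genes had an unadjusted p under 0.05. By the rule with unadjusted p, 2 members were higher and 5 lower. Stab2 was seen in all 4 liver libraries, at 0.713, 0.901, 1.04 and 1.03 CPM, and in peritoneal tumour cells at 0, 0, 0.0781 and 0.340 CPM (log2 3.27, SE 0.84, adjusted p = 0.0614). Clec4g, which was not tested, had 0.552, 1.30, 0.393 and 0.225 CPM in liver tumour cells. The mean of these values, 0.616 CPM, was 5.44 times the 0.113 CPM that 3 counts stand for at most in the peritoneal libraries. Single liver libraries lay closer to that level. Clec4g was called when no filter on low counts was used. Stab2 was called without the peritoneal tumour cells of mouse 1 (2.93, adjusted p = 0.0319) or mouse 4 (4.75, adjusted p = 0.0221). Emcn (-3.44, SE 0.91, adjusted p = 0.0666) and Plvap (-2.86, SE 0.83, adjusted p = 0.0893) lay in the other direction, and without the peritoneal tumour cells of mouse 1 these values were -2.01 and -1.07.

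Selp had 81.2 to 112.7 CPM in liver and 49.0, 30.2, 20.5 and 72.1 CPM in peritoneal tumour cells. The groups did not overlap, against 12.1% of all genes that did not, and each mouse had the higher value in the liver, by 1.56 to 4.23 times. The log2 fold change of 1.15 (SE 0.32) had an adjusted p of 0.0793, and it was called by DESeq2 (1.14, adjusted p = 0.0477) and without the peritoneal tumour cells of mouse 4 (1.51, adjusted p = 0.0271).

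Whether the site difference of stroma differs from that of tumour cells was tested in one fit of the 16 sorted libraries, in which 2.41% of all genes were called higher and 4.04% lower. Oit3 alone among the members was called, with a site difference larger in stroma by 5.06 on the log2 scale (SE 0.48, adjusted p = 1.31e-05). The interaction of Stab2 was 3.85 (SE 1.37, adjusted p = 0.0785) and that of Emcn 2.81 (SE 0.99, adjusted p = 0.0683), and DESeq2 called both (adjusted p = 0.00149 and 0.0133). Without single libraries up to 3 further members were called: Stab2 without the peritoneal stroma of mouse 1 (4.41, adjusted p = 0.0410), Emcn without the peritoneal tumour cells of mouse 2, 3 or 4 (3.09 to 3.10, adjusted p from 0.0455 to 0.0474), and Pecam1 (2.40, adjusted p = 0.0490) and Vwf (2.70, adjusted p = 0.0301) without those of mouse 2. For Clec4g the interaction has no usable estimate, as all peritoneal tumour-cell counts were 0. For Selp it was -0.36 (SE 0.45, adjusted p = 0.630).

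Most of the members were at or near 0 in cultured BMEL cells. In the 9 cultures Clec4g and Emcn had no counts, Pecam1, Vwf, Stab2, Lyve1, Plvap and Sele lay at or below 0.436 CPM, and these 8 genes did not pass the filter on low counts. Oit3 was seen at 2.34, 1.83 and 2.28 CPM in BMEL WT, 2.27, 2.498 and 2.02 CPM in RasLOW and 4.202, 3.04 and 2.02 CPM in RasHIGH cells. It was called in none of the comparisons (log2 0.09, 0.54 and 0.46, adjusted p = 0.915, 0.304 and 0.780 for RasLOW and RasHIGH against BMEL WT and RasHIGH against RasLOW).

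Against BMEL WT, Selp was called higher in RasLOW and in RasHIGH cells. It stood at 1.22, 2.72 and 1.37 CPM in BMEL WT, at 25.2, 6.21 and 18.7 CPM in RasLOW and at 70.9, 61.6 and 50.0 CPM in RasHIGH cultures, with no overlap between groups. Such a lack of overlap was seen for 27.7%, 42.6% and 15.5% of all genes in RasLOW against BMEL WT, RasHIGH against BMEL WT and RasHIGH against RasLOW. RasHIGH exceeded BMEL WT by 5.11 on the log2 scale (SE 0.35, adjusted p = 2.95e-04, where 3.71% of all genes were called higher and 6.06% lower at a threshold of 1.5). RasLOW exceeded BMEL WT by 3.27 (SE 0.59, adjusted p = 0.0245, background 0.626% higher and 2.71% lower), but this call was lost with the replicate number as a block (3.14, adjusted p = 0.0870) and without BMEL WT culture 1 (adjusted p = 0.102), 2 (0.0624) or 3 (0.0920) or RasLOW culture 1 (0.0590) or 3 (0.0831), the log2 fold change staying between 2.80 and 3.72.

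Between RasHIGH and RasLOW the difference of 1.85 (SE 0.49, unadjusted p = 0.00674) had an adjusted p of 0.235, where 0.0585% of all genes were called higher and 0.0167% lower, and it passed under DESeq2 (adjusted p = 0.01001). The paper, with thresholds of log2 fold change above 1 and p under 0.05, listed Selp as higher in RasHIGH than in RasLOW cells. It listed Selp as higher in liver than in peritoneal tumour cells too, and also measured it by RTqPCR. BMEL WT cultures 1 and 2 were sequenced on lane 3 and all Ras cultures on lane 4, so lane and Ras largely coincided. BMEL WT culture 3, the only control culture on lane 4, had 1.37 CPM of Selp. The part of the lane in the Selp values was not tested. Over all 25 libraries, mean Selp was ordered as BMEL WT (1.77 ± 0.82), RasLOW (16.7 ± 9.65), peritoneal stroma (34.8 ± 7.43), peritoneal tumour cells (42.9 ± 22.8), RasHIGH (60.8 ± 10.5), liver stroma (62.0 ± 21.9) and liver tumour cells (91.8 ± 14.1 CPM, SD over 3 cultures or 4 mice). From peritoneal stroma to liver tumour cells, neighbours in this order overlapped. Platelets also carry P-selectin, and the platelet genes summed to between 27.0 and 34.8 CPM in liver tumour cells and 98.1 and 140.2 CPM in liver stroma. In RasHIGH cultures the same genes summed to between 19.2 and 48.4 CPM, a range that holds the liver tumour-cell sums. The part of platelets in the Selp values was not tested.

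**Figure D5:**
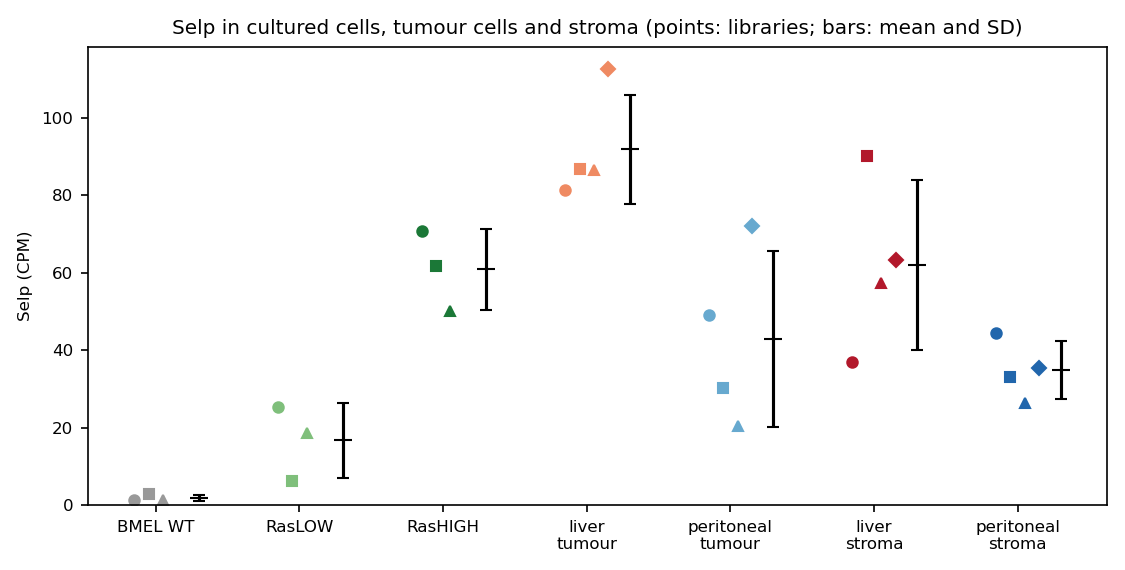
Selp in CPM in the 25 libraries, as points by library with mean and SD beside each group (3 cultures or 4 mice). BMEL WT cultures lie at 1.22 to 2.72 CPM, RasHIGH cultures at 50.0 to 70.9 CPM and liver tumour cells at 81.2 to 112.7 CPM.

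The genes whose profiles over the 16 sorted libraries were nearest to a member, by the root mean square difference of centred log2(CPM + 1) values over 17448 genes, were listed as a description. Nearest to Stab2 were Gpr182 (difference 0.522), the Kupffer cell genes Clec4f (0.588), Cd5l (0.698) and Vsig4 (1.03), and Clec1b (1.05). Nearest to Pecam1 were Lrg1 (0.268), Apobec1 (0.329), P2ry6 (0.339), Cd93 (0.340) and Mylip (0.349). Nearest to Selp were Tmem163 (0.370), Kbtbd11 (0.428), Gbe1 (0.444), Me2 (0.448) and Srgap3 (0.458), which averaged between 2.74 and 149.2 CPM in liver tumour cells and were lower in peritoneal tumour cells.

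Promoter sequences, 250 bases before to 50 after the annotated start (RefSeq, GRCm38.p6, 5′ to 3′ on the gene's strand), were at hand for 5 of the members: Clec4g, Emcn, Sele, Selp and Stab2. They were searched on both strands for AGGAA (a core of ETS factor sites, present in 66.7% of all 32851 promoters), TGANTCA (AP-1, 7.81%), GATAA (GATA factors, 25.4%) and the NF-kB motif (1.63%), all chosen after the values were seen. AGGAA was in all 5 windows and the NF-kB motif in none. TGANTCA was in the windows of both selectin genes, starting at -73 in Sele and -139 in Selp relative to the start, and in none of the other 3. GATAA was in Sele and Emcn. Selp and its neighbour Sele are shown because Selp was called in Ras cultures while Sele did not pass the filter there, and Stab2 and Clec4g because they had the largest differences between the stromal groups, with AGGAA (or TTCCT) and TGANTCA in capitals.
Selp promoter, chr1:164115014-164115313 (+ strand): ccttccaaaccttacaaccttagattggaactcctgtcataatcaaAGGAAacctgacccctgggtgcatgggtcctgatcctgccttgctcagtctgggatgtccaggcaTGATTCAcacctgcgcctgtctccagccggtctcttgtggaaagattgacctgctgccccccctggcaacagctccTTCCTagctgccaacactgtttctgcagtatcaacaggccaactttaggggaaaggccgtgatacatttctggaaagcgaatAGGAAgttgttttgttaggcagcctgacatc
Sele promoter, chr1:164047984-164048283 (+ strand): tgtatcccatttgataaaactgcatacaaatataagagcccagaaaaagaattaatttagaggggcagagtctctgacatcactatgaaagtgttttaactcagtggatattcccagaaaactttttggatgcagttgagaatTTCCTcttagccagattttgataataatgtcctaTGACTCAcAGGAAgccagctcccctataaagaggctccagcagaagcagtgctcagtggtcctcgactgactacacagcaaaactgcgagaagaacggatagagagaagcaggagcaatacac
Stab2 promoter, chr10:87007893-87008192 (- strand): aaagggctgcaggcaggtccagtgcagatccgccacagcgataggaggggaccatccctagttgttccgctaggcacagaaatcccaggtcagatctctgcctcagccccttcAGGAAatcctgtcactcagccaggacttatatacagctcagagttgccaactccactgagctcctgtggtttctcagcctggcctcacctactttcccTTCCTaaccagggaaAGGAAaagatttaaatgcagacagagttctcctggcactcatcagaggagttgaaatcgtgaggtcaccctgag
Clec4g promoter, chr8:3720602-3720901 (- strand): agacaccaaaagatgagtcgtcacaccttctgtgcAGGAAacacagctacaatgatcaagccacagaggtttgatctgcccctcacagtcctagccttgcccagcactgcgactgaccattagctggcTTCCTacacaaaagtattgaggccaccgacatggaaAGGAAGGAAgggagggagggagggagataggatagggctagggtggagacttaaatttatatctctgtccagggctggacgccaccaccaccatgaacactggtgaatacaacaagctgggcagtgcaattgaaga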

How the data were processed

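RNA was measured in 25 libraries made by the study with a NuGEN mRNA kit. The deposited table holds whole-number counts per gene, which the authors obtained from reads aligned, per their methods, to mm9 with TopHat2. The submitters' processing notes instead name mm8, mm10, FastQC and Bowtie 0.12.2, and the counting program, annotation and strand setting are not given in the sources used here. How reads of overlapping genes were assigned is therefore unknown. Groups and mouse numbers came from the sample labels, and positions from the mm9 annotation.

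CPM is the count per 1000000 counts of the library. Each comparison was fitted on its own groups with edgeR 4.0.16 (TMM, filterByExpr with a minimum count of 10, quasi-likelihood test, R 4.3.3), with p-values adjusted over all genes tested. A call needed an adjusted p under 0.05 and a log2 fold change beyond 1 for sorted cells or 1.5 for cultures, in either direction. Alternatives were DESeq2 1.42.0, RLE or library-total scaling, no filter, no fold threshold, unadjusted p, all libraries in one fit, the mouse or replicate number as a block, and leaving out each library.

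The scale relative to endothelium used 16 pan-endothelial genes as an offset. The edgeR p-values of Stab2, Clec4g and Oit3 on that scale are not printed, and an exact permutation test is given. Members and the 13 gene lists were chosen with earlier results of these data known. Named genes were the 10 members, the 2 tested genes with the highest and the 2 with the lowest fold change of each list between the stromal groups (20 counts or more over the sorted libraries), any gene carrying a count of 5 or fewer, and the 5 genes nearest to Stab2, Pecam1 and Selp. The list of selectin ligands and partners is not reported here.

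The 4 libraries of a mouse come from the same animal, so mouse numbers pair the sorted samples by design. The deviations of same-numbered libraries from their group means correlated on average at 0.18 between stromal groups, 0.23 between liver stroma and tumour cells, 0.19 in the peritoneum and -0.05 between tumour cells. Replicate log2 CPM correlated at 0.984 to 0.998. The paper describes the 3 cultures of a group as independent biological samples, while the labels do not say how they were grown. Their p-values measure only the spread between these samples.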

Additional observations from a re-analysis of the deposited data

Results flagged for a closer look

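In groups of 4 libraries, a library was singled out when its gap to the nearest other value relative to the range of the group exceeded Dixon's critical value. Of 39 groups examined 7 had such a library, where chance gives about 1 in 20 for normally distributed values. The same libraries recur from gene to gene, so the 39 groups are not independent and the count was not tested. In peritoneal tumour cells mouse 1 stood above the others for Pecam1 (19.7 CPM), Lyve1 (10.2 CPM), Emcn (4.49 CPM) and Plvap (22.1 CPM). In peritoneal stroma mouse 1 stood above the others for Stab2 (1.79 CPM) and Lyve1 (169.7 CPM). In liver stroma mouse 2 stood above the others for Oit3 (95.2 CPM).

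The site difference of Oit3 was larger in stroma than in tumour cells by 5.06 on the log2 scale, by a test of the interaction.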

How the results depend on the processing

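The calls of Stab2, Clec4g and Oit3 between the stromal groups held under every alternative run. Members called lower there numbered 2 with no fold threshold and 0 to 2 when single libraries were left out, and Lyve1 ranged from -1.06 to 0.43. Selp was the 1 member lower in liver stroma than in liver tumour cells with no fold threshold. In the peritoneum DESeq2 called 4 members higher in stroma than in tumour cells (3 had no adjusted p), and 0 were called lower by DESeq2, RLE or without the filter (Oit3 at -0.89, -0.89 and -0.99) and 0 to 1 without single libraries, with Selp between -0.43 and 0.22. Between tumour cells of the 2 sites the members called higher were 1 by DESeq2, 1 without the filter, 2 by unadjusted p, 2 with all libraries in one fit and 0 to 3 without single libraries, those called lower were 5 by unadjusted p and 2 with all libraries in one fit, and Sele ranged from -0.66 to 0.67. The interaction had 3 members called by DESeq2, 5 by unadjusted p and 1 to 4 without single libraries, with Lyve1 between -0.076 and 2.76 and Sele between -0.54 and 0.82. Relative to pan-endothelial genes, 0 to 3 members were called lower without single libraries. Pecam1 was at -0.028 with the median of the list and -0.022 by permutation, and ranged from -0.12 to 0.22, Vwf from -0.22 to 0.13 and Sele from -0.22 to 0.022. Vwf was at 0.056 without Cdh5 and Ptprb. The causes of these changes were not tested.

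With the mouse as a block, Sele between tumour cells was at 0.048 and Pecam1 relative to pan-endothelial genes at -0.020. Genes called higher and lower between tumour cells fell from 50 and 100 to 21 and 29, and no call of a member in sorted cells changed. Culture numbers share only a number (mean correlations -0.12, 0.06 and -0.30, with 0, 2 and 0 of 3 best with their own number). With it as a block, 0 members were called in RasLOW against BMEL WT, 0 to 1 without single cultures, and Oit3 there ranged from -0.020 to 0.17. All genes called higher and lower were then 46 and 189 in place of 77 and 334 (125 and 464 by DESeq2). In RasHIGH against RasLOW they were 7 and 2, against 157 and 98 by DESeq2 and 0 and 0 with the block, and 1 member, Selp, was called by DESeq2 and 1 by unadjusted p. Between tumour cells DESeq2 called 84 and 149 genes.

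Counts over all genes moved by more than 1.5 times in further cases. With no fold threshold 2202 genes were higher and 2723 lower in liver against peritoneal stroma (496 and 1472 with it), 5610 lower in liver stroma than in liver tumour cells (2399) and 5756 lower in peritoneal stroma than in peritoneal tumour cells (2361). Between tumour cells the counts were 150 and 310 by unadjusted p, 174 and 245 with no fold threshold and 86 and 225 in one fit. The interaction had 804 higher by unadjusted p, and 1150 and 1041 with no fold threshold (370 and 620). With no fold threshold, 236 genes were higher in RasLOW and 1341 higher and 1448 lower in RasHIGH against BMEL WT (457 and 747). RasHIGH against RasLOW gave 51 and 23 without the filter, 147 and 106 by unadjusted p and 46 and 42 in one fit. Without single libraries the counts between tumour cells ran from 13 to 151 higher and 10 to 127 lower, lowest for both without the liver tumour cells of mouse 2 and highest for both without the peritoneal tumour cells of mouse 1. Those of the interaction ran from 210 to 428 and 538 to 807, those of RasLOW against BMEL WT from 21 to 103 and 106 to 653, and those of RasHIGH against RasLOW from 0 to 11 and 0 to 5.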
